A study of Mus musculus with 17 samples.

Results

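The fibrillar collagen genes *Col1a1*, *Col1a2*, *Col3a1*, *Col5a1*, *Col5a2*, *Col5a3* and *Col11a1* were followed in cardiac fibroblasts (CFs) during the first 6 days after myocardial infarction (MI). These 7 are among the 31053 genes in the count table and were chosen by name, by matching their symbols to Ensembl identifiers, not by their values. All 7 passed the filter on low counts. The 17 libraries came from infarcted hearts of C57BL/6 mice of the genotype Collagen1a1-GFP+, aged 8 to 10 weeks, in which the left anterior descending coronary artery had been permanently ligated. Cells were sorted as GFP+/CD31-/CD45- at 1, 2, 4 and 6 days post-infarction (dpi, 3 libraries each), 3 dpi (4 libraries) and 5 dpi (1 library), and no uninfarcted heart was analysed here. The labels number the libraries of a day as replicates without saying how many hearts each one holds.

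Fibrillar collagens are secreted as procollagens of 3 wound chains, trimmed at both ends outside the cell and packed side by side into the fibrils that give tissue its tensile strength. Type I is built from the *Col1a1* and *Col1a2* chains and type III from *Col3a1* alone, and together they make most of the collagen of the heart and of the scar that replaces dead muscle. The type V chains *Col5a1*, *Col5a2* and *Col5a3* and the type XI chain *Col11a1* are minor chains that start fibrils and limit their width. In the heart they are made mainly by fibroblasts.

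The gate bears on these genes directly, because the GFP used for sorting was a reporter of *Col1a1*, so that the level of *Col1a1* is not independent of how the cells were chosen. Counts came from MARS-seq, which reads the 3′ ends of poly-A transcripts, and in bulk samples fewer cells that express a gene cannot be told apart from less of its RNA per cell. Library totals ranged from 8021815 to 22029938 counts, with a median of 14123952. Fibroblast markers (*Pdgfra*, *Tcf21*, *Thy1*, *Dcn*, *Gsn*, *Ddr2*) summed to 10354 to 27295 CPM (counts scaled to a common library size) at 1 and 2 dpi, 7127 to 22399 in the window from 3 to 5 dpi and 15797 to 17343 at 6 dpi. The defining genes of the excluded cells were low, with 7 to 241 counts of *Pecam1*, which encodes CD31, and 0 to 37 of *Ptprc*, which encodes CD45. The 5 leukocyte markers nonetheless summed to 39.7 to 176 CPM at 3 dpi against 7.63 to 29.8 at 1 and 2 dpi, and the 5 cardiomyocyte markers to 43.3 to 73.4 CPM at 6 dpi against 4.75 to 18.9 at 1 and 2 dpi. Mitochondrial genes took 1.35% to 1.86% of counts at 1 and 2 dpi, 0.321% to 0.782% at 3 dpi, 1.22% to 2.04% at 4 dpi, 0.620% at 5 dpi and 0.425% to 1.71% at 6 dpi. The part of these markers and shares in the collagen values was not tested.

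Some features of the libraries touch these results. In 3 dpi replicate 2 and 6 dpi replicates 1 and 2, GC-rich genes (at least 58.4% GC) stood above GC-poor genes (at most 42.3%) by 0.43, 1.12 and 1.30 on the log2 scale, relative to their means over all libraries, whereas the other 14 libraries lay between -0.49 and 0.02. The members differ in GC content, from 48.0% in the longest coding transcript of *Col11a1* and 49.6% in *Col5a2* to 58.9% in *Col1a1* and 61.6% in *Col5a3*. Within the last 500 bases, nearer to what the assay reads, GC content was 27.4% in *Col11a1*, 36.8% in *Col5a2*, 39.2% in *Col1a1* and 53.0% in *Col5a3*. Grouped by those bases, GC-rich genes again stood highest in the same 3 libraries, by 0.35, 1.07 and 1.41 against -0.70 to 0.08 in the others. Results are therefore also given without these 3 libraries, which leaves 1 library at 6 dpi whose spread is taken to be that of the other days, so that a call lost there at 6 dpi can come from the smaller sample. *Xist* is expressed from the inactive X chromosome. Its counts exceeded the sum of 4 Y-linked genes in every 4 and 6 dpi library and in 1 dpi replicate 1. They lay below that sum in the 10 other libraries, so that 3 and 4 dpi differ in this pattern as well as in day. The 6 dpi libraries likewise differ in it from 1 dpi replicates 2 and 3 and from the 3 and 5 dpi libraries of the window. The part of this pattern at 6 against 1 dpi and in the window against 6 dpi was not tested. The 5 dpi library has no replicate. In the count table the 3 dpi libraries are named by another pattern than those of all other days. What this difference reflects is not stated. At the steps from 2 to 3 and from 3 to 4 dpi it cannot be told apart from day.

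The members sit on 6 chromosomes (GRCm38, GENCODE vM21), and *Col3a1* (chr1:45311538-45349706, plus strand) and *Col5a2* (chr1:45374321-45503282, minus strand) are neighbours. The others are *Col1a1* (chr11:94936224-94953042), *Col1a2* (chr6:4504814-4541544), *Col5a1* (chr2:27886425-28039514) and *Col11a1* (chr3:114030540-114220718) on the plus strand and *Col5a3* (chr9:20770050-20815067) on the minus strand. Because several members moved together, the 250 bases before the RefSeq start site (GRCm38.p6, written 5′ to 3′ on the gene's strand) are shown for 4 of the 5 members that the table holds (*Col1a1* and *Col5a2* had no entry), namely for *Col1a2* and *Col3a1*, which rose side by side, for *Col11a1*, whose rise was the largest of the 7, and for *Col5a3*, which did not pass a test. Capitals mark 3 short motifs on either strand, the CCAAT box (CCAAT, or ATTGG on the other strand), the GC box (GGGCGG, or CCGCCC) and a TATA box (TATAAA).
*Col1a2*, chr6:4505368-4505617, plus strand: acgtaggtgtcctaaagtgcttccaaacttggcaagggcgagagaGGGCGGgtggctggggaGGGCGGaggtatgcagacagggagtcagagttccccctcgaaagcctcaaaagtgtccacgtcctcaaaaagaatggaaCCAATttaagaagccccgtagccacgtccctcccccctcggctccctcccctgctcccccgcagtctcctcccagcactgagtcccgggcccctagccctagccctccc
*Col3a1*, chr1:45311288-45311537, plus strand: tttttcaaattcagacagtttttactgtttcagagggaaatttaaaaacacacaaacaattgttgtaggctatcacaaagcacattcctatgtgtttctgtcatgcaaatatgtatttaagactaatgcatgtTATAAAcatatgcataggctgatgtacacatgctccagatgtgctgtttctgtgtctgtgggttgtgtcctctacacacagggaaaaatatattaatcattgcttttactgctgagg
*Col11a1*, chr3:114030290-114030539, plus strand: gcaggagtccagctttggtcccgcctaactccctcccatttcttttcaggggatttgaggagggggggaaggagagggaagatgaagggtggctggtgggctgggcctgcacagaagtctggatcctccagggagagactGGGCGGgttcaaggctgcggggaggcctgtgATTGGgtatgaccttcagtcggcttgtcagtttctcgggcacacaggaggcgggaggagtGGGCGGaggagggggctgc
*Col5a3*, chr9:20815068-20815317, minus strand: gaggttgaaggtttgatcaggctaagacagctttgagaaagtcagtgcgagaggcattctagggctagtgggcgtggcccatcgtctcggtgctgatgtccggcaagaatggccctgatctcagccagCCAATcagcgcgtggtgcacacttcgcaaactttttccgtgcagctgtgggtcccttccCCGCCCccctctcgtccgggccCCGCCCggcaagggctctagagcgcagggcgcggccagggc
The *Col1a2* window lies inside the GENCODE gene, whose start is upstream of the RefSeq one. The *Col1a2*, *Col11a1* and *Col5a3* windows each held 1 CCAAT box, which began 109, 79 and 122 bases before the start, and 2 GC boxes. The *Col3a1* window had none of these and held 1 TATAAA match, marked by its letters alone without regard to its distance from the start. Its GC content was 35.2%, against 62.0% to 62.8% in the other windows shown. The *Col5a1* window, which is not shown, had 76.4% GC, 2 GC boxes and no CCAAT or TATAAA match. Such letters are common, since 33.8% of 32851 RefSeq promoter windows of this length held a CCAAT box, 32.7% a GC box and 12.4% a TATA box, and a match is a description of the sequence, not a bound site.

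Between 1 and 2 dpi and the window from 3 to 5 dpi, which the study names as its transition into reparative CFs and drew in part from these libraries, the level of 6 of the 7 fibrillar collagen genes rose (edgeR's quasi-likelihood test, Benjamini-Hochberg over all 14030 genes tested, threshold 0.05). In the same comparison 5.25% of all genes tested rose and 7.48% changed in either direction. For *Col1a1*, *Col1a2*, *Col3a1* and *Col5a1* every library of the window lay above every one of 1 and 2 dpi, as it did for 1.7% of all genes. The median log2 fold change of the members was 1.41, against -0.0007 over all genes tested. The rises ranged from 1.88-fold for *Col5a1* to 9.46-fold for *Col11a1*, and *Col5a3* was the only member that did not pass. Together the 7 genes took 0.573% to 0.722% of all counts of a library at 1 dpi, 1.06% to 1.09% at 2 dpi, 1.76% to 2.97% at 3 dpi and 1.95% to 2.79% at 4 dpi. The share was 2.33% in the single library of 5 dpi and ran from 1.34% to 2.38% at 6 dpi.

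**Figure D1:**
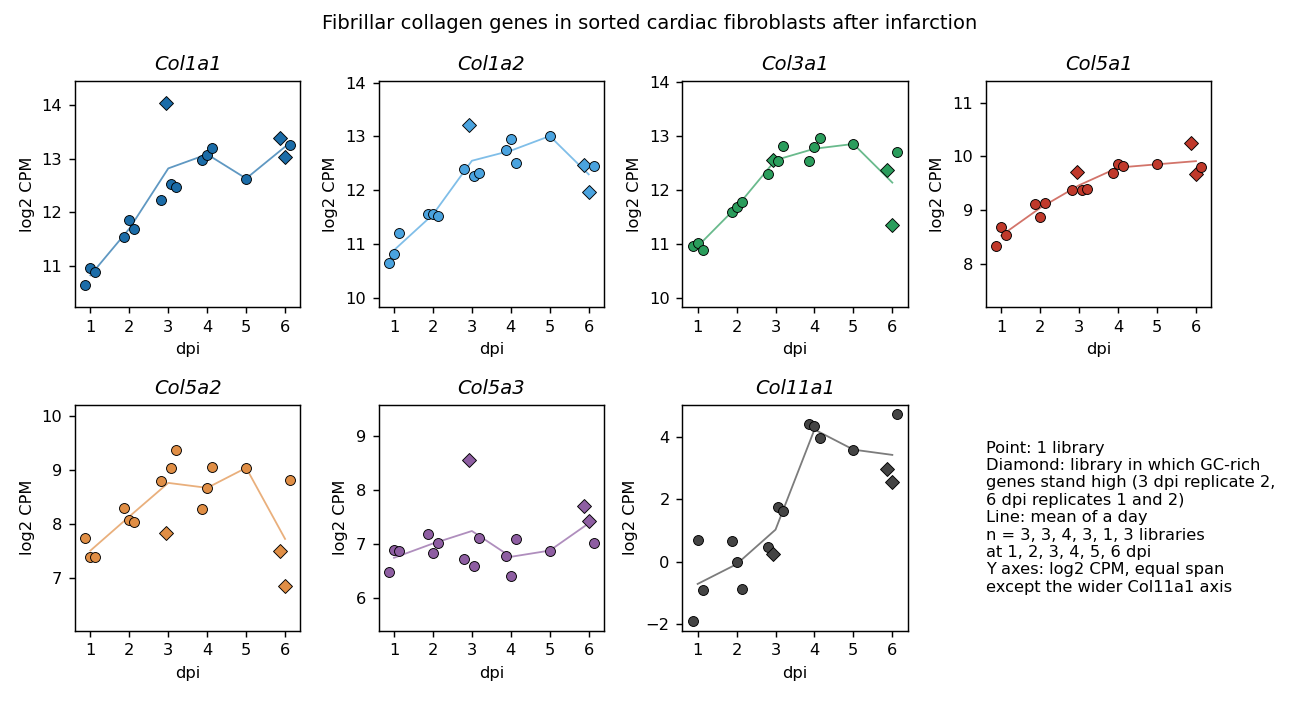
Level of each fibrillar collagen gene by day, as log2 CPM of normalized library sizes (y axis) against dpi (x axis). Each point is 1 library, diamonds mark the 3 libraries in which GC-rich genes stood high, and the line joins the means of the days. *Col1a1*, *Col1a2* and *Col3a1* lie between 10.64 and 11.20 in every 1 dpi library and at or above 12.23 in every 3 to 5 dpi library, whereas *Col11a1* stays at or below 1.77 through 3 dpi and lies between 3.96 and 4.43 at 4 dpi.

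*Col1a1* and *Col1a2* encode the α1 and α2 chains of type I collagen. The level of *Col1a1* was 10.65, 10.96 and 10.89 log2 CPM in the 3 libraries at 1 dpi, 11.54, 11.86 and 11.68 at 2 dpi, 12.23, 14.03, 12.53 and 12.48 at 3 dpi, 12.97, 13.07 and 13.20 at 4 dpi, 12.63 at 5 dpi and 13.38, 13.03 and 13.25 at 6 dpi. That of *Col1a2* was 10.64, 10.82 and 11.20 at 1 dpi, 11.57, 11.57 and 11.52 at 2 dpi, 12.39, 13.22, 12.26 and 12.33 at 3 dpi, 12.75, 12.95 and 12.52 at 4 dpi, 13.01 at 5 dpi and 12.47, 11.96 and 12.46 at 6 dpi. Both genes thus stood higher in each 2 dpi library than in any at 1 dpi, and higher in each library from 3 dpi on than in any at 2 dpi. At 6 dpi all 3 *Col1a2* values lay below each of 4 dpi, as for 10.2% of all genes, and the *Col1a1* values did not, but neither gene passed between these days (adjusted p = 0.437 for *Col1a2* and 0.864 for *Col1a1*). At 3 dpi replicate 2 stood above the other 3 libraries for both.

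*Col1a1* was 1.64 ± 0.27 higher in the window than at 1 and 2 dpi (log2 fold change ± SE, adjusted p = 0.000614) and *Col1a2* was 1.56 ± 0.22 higher (adjusted p = 0.000101). Without the 3 libraries in which GC-rich genes stood high, the changes were 1.44 and 1.46 and both were called. In the 10 libraries where Y-linked counts exceeded those of *Xist* they were 1.51 and 1.52, again called. From 1 to 6 dpi, where 12.1% of all genes changed and 6.91% rose, 5 members rose. There the fitted fold was 5.24 for *Col1a1* (2.39 ± 0.40, adjusted p = 0.000659) and 2.65 for *Col1a2* (1.41 ± 0.31, adjusted p = 0.00576).

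*Col3a1*, whose product forms type III collagen, the thinner fibrils abundant in early granulation tissue, followed the same course up to 5 dpi. Its level was 10.96, 11.004 and 10.89 log2 CPM at 1 dpi, 11.59, 11.68 and 11.78 at 2 dpi, 12.30, 12.56, 12.54 and 12.81 at 3 dpi, 12.54, 12.79 and 12.96 at 4 dpi and 12.85 at 5 dpi, and 12.37, 11.34 and 12.70 at 6 dpi. The days 1, 2 and 3 did not overlap, and the highest library was at 4 dpi. At 6 dpi replicate 2, the library in which GC-rich genes stood highest, lay below every library of 2 dpi and the other replicates lay within the range of 3 dpi. The rise from 1 and 2 dpi to the window was 1.41 ± 0.22 (adjusted p = 0.000308), and that from 1 to 6 dpi was 1.29 ± 0.31 (adjusted p = 0.0110), which became 1.75 without the 3 libraries.

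*Col5a1* encodes the α1 chain shared by the common forms of type V collagen, which is needed to start type I fibrils. Its level was 8.34, 8.70 and 8.55 log2 CPM at 1 dpi, 9.12, 8.87 and 9.14 at 2 dpi, 9.38, 9.70, 9.37 and 9.40 at 3 dpi, 9.70, 9.85 and 9.82 at 4 dpi, 9.85 at 5 dpi and 10.26, 9.67 and 9.81 at 6 dpi. The gene rose by 0.91 ± 0.17 from 1 and 2 dpi to the window (adjusted p = 0.00162) and by 1.40 ± 0.24 from 1 to 6 dpi (adjusted p = 0.000973). The day means rose at every step to 9.91 ± 0.31 (SD, n = 3) at 6 dpi, but with each library's levels corrected for GC content the 6 dpi mean was 9.59, below the 9.85 of 4 dpi, so that the order of the last days depends on that correction.

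*Col5a2*, the α2 chain that pairs with *Col5a1* in the main form of type V collagen, varied more between the libraries of 3 and 6 dpi than between those of 1 and 2 dpi. Its level was 7.74, 7.39 and 7.38 log2 CPM at 1 dpi, 8.29, 8.08 and 8.04 at 2 dpi, 8.79, 7.84, 9.04 and 9.38 at 3 dpi, 8.28, 8.67 and 9.06 at 4 dpi, 9.04 at 5 dpi and 7.49, 6.85 and 8.82 at 6 dpi. The lowest 3 dpi library and both low 6 dpi libraries are the 3 in which GC-rich genes stood high. The rise to the window was 1.04 ± 0.29 (adjusted p = 0.0310). It was 1.12 without the 3 libraries (adjusted p = 0.000285), but the call was lost when any 1 of 8 other libraries was left out, among them each library of 1 and 2 dpi, with changes of 0.95 to 1.09. The change from 1 to 6 dpi was 0.45 ± 0.41 (adjusted p = 0.505) with all libraries and 1.31 (adjusted p = 0.0265) without the 3, which leaves 1 library at 6 dpi.

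*Col5a3*, a type V chain of more restricted expression, did not pass in any of the 8 comparisons. Its level was 6.47, 6.88 and 6.88 log2 CPM at 1 dpi, 7.18, 6.83 and 7.02 at 2 dpi, 6.72, 8.56, 6.58 and 7.10 at 3 dpi, 6.78, 6.41 and 7.10 at 4 dpi, 6.88 at 5 dpi and 7.72, 7.43 and 7.01 at 6 dpi. The 3 highest values belong to the 3 libraries in which GC-rich genes stood high, and the other 14 libraries lay between 6.41 and 7.18. The change to the window was 0.16 ± 0.28 (adjusted p = 0.788), and it was -0.06 without the 3 libraries. The 6 dpi libraries lay above those of 1 dpi for *Col5a3* and 5 other members, as they did for 17.1% of all genes, and its change between these days was 0.66 ± 0.39 (adjusted p = 0.288) and 0.26 without the 3 libraries. Its time course had an adjusted p of 0.440.

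*Col11a1*, the α1 chain of type XI collagen, is best known from cartilage, where it sets the width of thin fibrils. In these CFs it was counted 1, 36 and 8 times in the 1 dpi libraries, 27, 16 and 7 times at 2 dpi and 14, 13, 44 and 28 times at 3 dpi, then 330, 350 and 144 times at 4 dpi, 115 times at 5 dpi and 120, 68 and 346 times at 6 dpi. As a level, it was at most 1.77 log2 CPM in every library up to 3 dpi and at least 2.57 in every library after. At 1 dpi the library with 1 count lies under the floor of 3 counts, so that these levels are uncertain. The gene rose 8.90-fold from 3 to 4 dpi (log2 3.15 ± 0.60, adjusted p = 0.00782), a step at which 2.71% of all genes changed and 1.63% rose, and no other member passed. Its 4 dpi libraries all lay above those of 3 dpi, as they did for 8.64% of all genes. From 1 and 2 dpi to the window the rise was 3.24 ± 0.49 (adjusted p = 0.000199), and only 1.22% of genes tested had a larger fitted fold change.

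The step from 3 to 4 dpi coincides with the change from Y-linked to *Xist* counts, and day and this pattern cannot be told apart there. The 5 cardiomyocyte markers also stood higher at 4 dpi, where they summed to 23.1 to 43.8 CPM against 3.62 to 9.27 at 3 dpi, and their part in the result was not tested. They were at 7.82 CPM in the 5 dpi library. That library, which shared the Y-linked pattern of 3 dpi, had 3.60 log2 CPM of *Col11a1*. In 1 dpi replicate 1, which had 1670 *Xist* and 84 Y-linked counts, the level was -1.92. That value is 1 count, under the floor of 3 counts, so it cannot show how *Col11a1* goes with this pattern. Where Y-linked counts exceeded *Xist*, which leaves the 3 and 5 dpi libraries in the window, the rise from 1 and 2 dpi was 2.45 (adjusted p = 0.0288). In that value the single 5 dpi library weighs as much as all the 3 dpi libraries together. From 2 to 3 dpi, with all libraries in the fit, the change of *Col11a1* was 1.23 ± 0.65 and did not pass (adjusted p = 0.33).

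**Figure D2:**
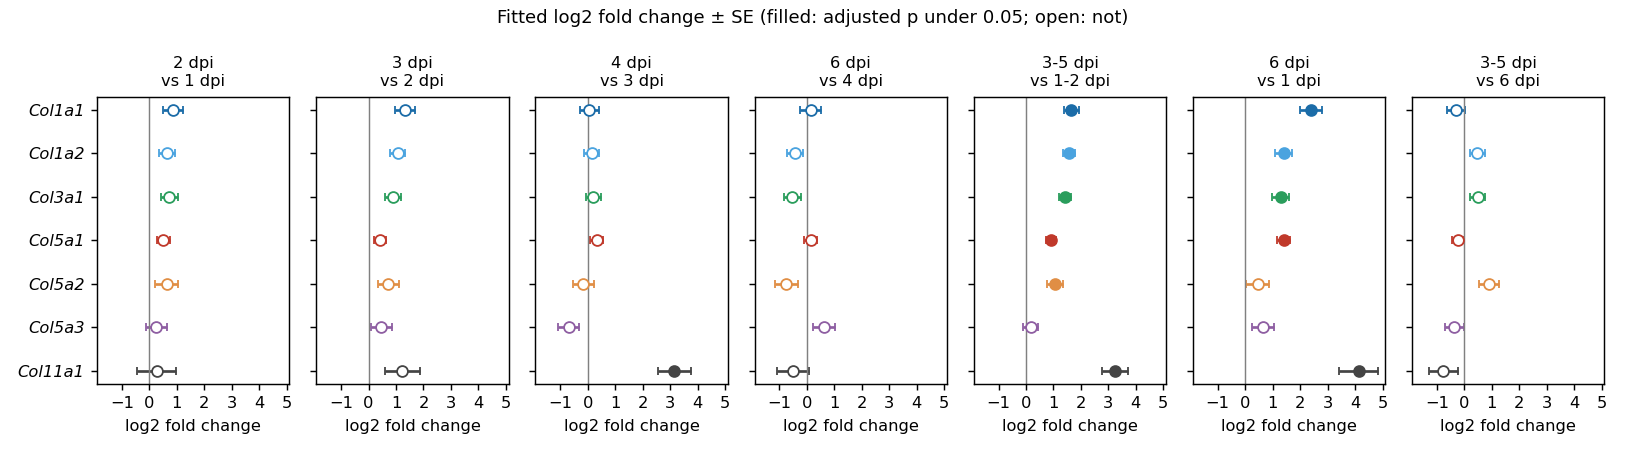
Fitted log2 fold change (x axis) of each fibrillar collagen gene (rows) in the 7 comparisons between days, with bars of ± 1 SE. Filled points had an adjusted p under 0.05, which 6 genes reached in the window from 3 to 5 dpi against 1 and 2 dpi, 5 at 6 against 1 dpi and *Col11a1* alone at 4 against 3 dpi.

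Day by day, the single steps of the major chains did not pass by edgeR. From 1 to 2 dpi 0.178% of all genes changed and no member did, by edgeR or DESeq2, although *Col1a1*, *Col1a2*, *Col3a1* and *Col5a1* had an unadjusted p under 0.05 by either tool. In that step the libraries of *Col1a1* (0.87 ± 0.38), *Col1a2*, *Col3a1*, *Col5a1* and *Col5a2* at 2 dpi all lay above those at 1 dpi, as did 8.05% of all genes. From 2 to 3 dpi 2.94% of all genes changed, and no member passed by edgeR, with adjusted p of 0.0532 for *Col1a2* (1.06 ± 0.29) and 0.0550 for *Col1a1* (1.31 ± 0.36). The *Col1a1* step was 0.71 without 3 dpi replicate 2, and that from 3 to 4 dpi then went from 0.06 to 0.66, so that its division between these days rests on that library. From 2 to 3 dpi, 3 members had an unadjusted p under 0.05 by edgeR. DESeq2, which called 5.11% of the 20569 genes with at least 1 count, called the same 3, *Col1a1*, *Col1a2* and *Col3a1*. In this step 4 members lay above without overlap, against 9.7% of all genes.

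After 4 dpi the fitted changes of the members differed in sign, and none of them passed. From 4 to 6 dpi, where 0.513% of all genes changed, the fitted changes ran from -0.74 ± 0.41 for *Col5a2* to 0.62 ± 0.39 for *Col5a3*, and no member had an unadjusted p under 0.05 by either tool. The window minus 6 dpi, where 11.5% of all genes changed, gave 0.91 ± 0.37 for *Col5a2* (adjusted p = 0.110), the only member with an unadjusted p under 0.05 by edgeR, while DESeq2 also called none and had *Col3a1* and *Col5a2* under that mark. Leaving out 6 dpi replicate 3 made the *Col5a2* difference 1.66 (adjusted p = 0.00484). Leaving out 3 dpi replicate 2 made it 0.98 and that of *Col5a3* -0.59 (adjusted p = 0.0347 and 0.0457), and without all 3 libraries in which GC-rich genes stood high they were 0.12 and -0.19 with 1 library left at 6 dpi, and neither was called, as 0.225% of all genes were. Over the whole course 5 members changed (adjusted p from 0.000103 for *Col11a1* to 0.00350 for *Col5a1*), as did 15% of all genes, and *Col5a2* had an adjusted p of 0.0862.

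**Figure D3:**
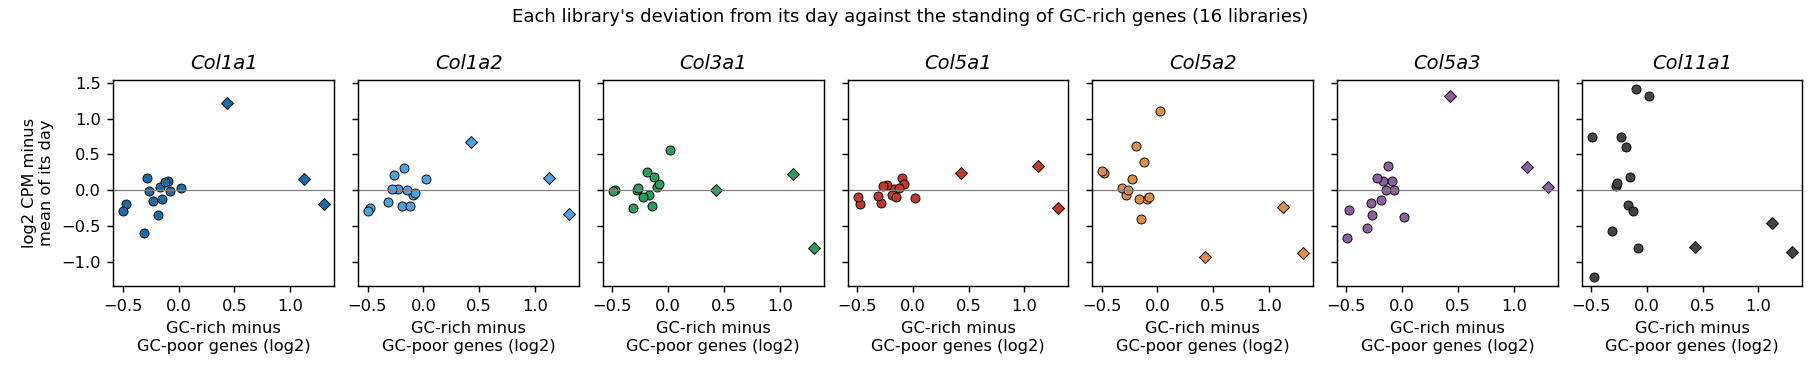
Deviation of each library from the mean of its day (y axis, log2 CPM) against the median deviation of GC-rich minus that of GC-poor genes in the same library (x axis, log2), for the 16 libraries of days with replicates. Diamonds are the 3 libraries at 0.43, 1.12 and 1.30, where *Col5a2* lies below and *Col5a3* above the mean of the day in all 3, and *Col1a1* and *Col1a2* lie above it in the first.

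Correlations between members over the 17 libraries are given as a description of libraries that share their days and their depths. Pearson's r of log2 CPM was 0.921 for *Col1a1* with *Col5a1*, 0.906 for *Col1a1* with *Col1a2* and 0.899 for *Col1a2* with *Col3a1*. It was 0.822 for *Col11a1* with *Col5a1*, 0.774 for *Col3a1* with *Col5a2* and -0.318 for *Col5a2* with *Col5a3*. Once the mean of each day was removed (16 libraries), *Col1a1* had r = 0.785 with *Col1a2*, 0.852 with *Col5a3* and -0.437 with *Col5a2*. *Col3a1* and *Col5a2* had 0.713. These values include the 3 libraries in which GC-rich genes stood high, and the part of GC content in them was not tested.

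Ratios within a library do not depend on how libraries are scaled, and their change from day to day shows whether the RNA counts of the chains kept their proportion. The ratio of *Col5a1* to *Col1a1* fell by 0.78 on the log2 scale from 1 and 2 dpi (lowest -2.99, highest -2.27, 6 libraries) to the window (lowest -4.33, highest -2.78, 8 libraries), with a two-sided exact permutation p of 0.0020 and an adjusted p of 0.0200 over 10 ratio tests. It was the only one of the 10 to pass, and the call was lost on leaving out any 1 dpi library or 2 dpi replicate 1 (adjusted p = 0.0544 to 0.0622). The mean ratio was -2.30 ± 0.03 at 1 dpi and -2.65 ± 0.30 at 2 dpi (SD, n = 3 each). It then stood at -3.35 ± 0.66 for the 4 libraries of 3 dpi, -3.29 ± 0.08 for the 3 of 4 dpi and -3.31 ± 0.17 for the 3 of 6 dpi, with -2.78 in the single library of 5 dpi. The RNA of the minor chain thus made up less of the pair at 3, 4 and 6 dpi than at 1 dpi in every library, and the 5 dpi library lay within the range of 2 dpi. The level of *Col1a1* in this pair is not independent of the sorting gate. Without the 3 libraries in which GC-rich genes stood high the difference was -0.62 (adjusted p = 0.0262), and with the window reduced to 4 and 5 dpi it was -0.68 and did not pass (exact p = 0.0143, adjusted p = 0.0714).

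The proportion of the RNA counts of the type I chains at 6 dpi did not pass after adjustment. The log2 ratio of *Col1a1* to *Col1a2* was 0.91, 1.06 and 0.80 in the 6 dpi libraries, against -0.38 to 0.81 in the window, a difference of 0.71 (exact p = 0.0242, adjusted p = 0.0606). With each library corrected for GC content the mean at 6 dpi was 0.76 and the difference was 0.50 (exact p = 0.0424, adjusted p = 0.141). Across 1 and 2 dpi the ratio lay between -0.32 and 0.30, and it did not differ from the window beyond the spread (exact p = 0.369, adjusted p = 0.527). *Col3a1* to *Col1a1* lay from -1.69 to -0.56 at 6 dpi and from -1.47 to 0.34 in the window (exact p = 0.0485, adjusted p = 0.0970).

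Within type V, *Col5a1* to *Col5a2* stood at 2.76 and 2.82 in 6 dpi replicates 1 and 2 and at 0.98 in replicate 3, against 0.02 to 1.87 in the window (difference 1.32, exact p = 0.0242, adjusted p = 0.0606). The difference was 0.25 without the 3 libraries in which GC-rich genes stood high. *Col11a1* to *Col5a1* lay between -5.88 and -5.28 in the 4 dpi libraries and between -9.58 and -7.64 at 3 dpi, which do not overlap. Its mean was 2.32 higher in the window than at 1 and 2 dpi (exact p = 0.0137, adjusted p = 0.0606), and 3.71 higher in 4 and 5 dpi alone (exact p = 0.00476, adjusted p = 0.0476).

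**Figure D4:**
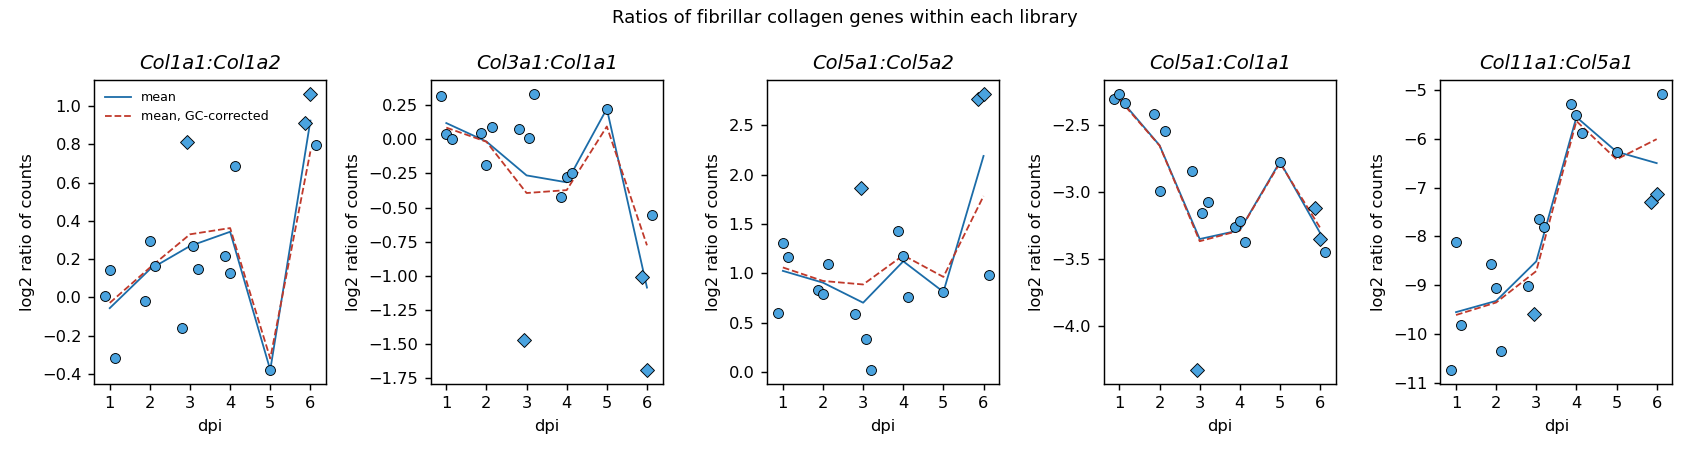
Log2 ratio of counts of 2 fibrillar collagen genes within each library (y axes, 5 ratios, each axis with its own range) against dpi (x axis). Points are libraries, diamonds the 3 libraries in which GC-rich genes stood high, solid lines the means of the days and dashed lines the means after GC correction. *Col5a1* to *Col1a1* falls from -2.30 at 1 dpi to -3.29 at 4 dpi, and *Col5a1* to *Col5a2* at 6 dpi moves from 2.19 to 1.78 with the correction.

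The 4 fibrillar collagen genes outside the 7 differed in how often they were counted and in when they rose. *Col24a1*, a type XXIV chain known from bone, had no count in any of the 6 libraries at 1 and 2 dpi. It was counted 34, 15, 7 and 32 times at 3 dpi, 79, 74 and 32 times at 4 dpi, 60 times at 5 dpi and 46, 7 and 65 times at 6 dpi. Against the floor of 3 counts over the early libraries it was at least 116-fold higher in the window (333 counts in 8 libraries, adjusted p = 3.22e-05). It was already counted in every library of 3 dpi, when it was at least 35.1-fold higher than at 2 dpi (adjusted p = 0.00679), a day before the step of *Col11a1*.

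*Col27a1*, a chain of developing cartilage, had 326 to 2085 counts in each library and rose by 0.62 ± 0.16 in the window (adjusted p = 0.0209) and by 1.19 ± 0.23 from 1 to 6 dpi (adjusted p = 0.00234). The first call was lost without 1 dpi replicate 1 or 2 dpi replicates 1 or 2 (0.54 to 0.59), and the second without the 3 libraries in which GC-rich genes stood high (0.89, adjusted p = 0.0729), where 1 library is left at 6 dpi. *Col2a1*, the main cartilage collagen, had 0 counts in each 1 dpi library and 22, 25 and 147 at 6 dpi (at least 73.8-fold higher, adjusted p = 0.0182). *Col11a2*, its type XI partner, had 6 to 13 counts at 1 dpi and 17 to 64 at 6 dpi (2.55 ± 0.71, adjusted p = 0.0242). The *Col2a1* call was lost on leaving out any 1 dpi library, and that of *Col11a2* in 4 of 16 such fits and with the GC correction (1.85, adjusted p = 0.0992). In the window neither passed. Without the 3 libraries in which GC-rich genes stood high, 2 of these 4 genes were called at 6 against 1 dpi, where 3.08% of all genes then passed in place of 12.1%.

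Procollagen needs enzymes, chaperones and proteases before it becomes a fibril, and 65 genes of these steps were examined in 8 lists, of which 63 were tested. In the window 15 rose and 4 fell, or 19 of 63 where 7.48% of all genes changed, with a median log2 fold change of 0.45 over the 63, against 1.41 for the 7 collagens. Without the 3 libraries in which GC-rich genes stood high 30 were called, and 13.4% of all genes. From 1 to 6 dpi 17 rose and 1 fell, where 12.1% of all genes changed. Of the 19 calls of the window 14 were made in every fit that left out 1 library, as were 14 of the 18 at 6 against 1 dpi. The lists were chosen with earlier results of these data known, and of the genes named, those called beyond the fixed choice (the 2 genes of highest counts in a list and those changed by 2 or more) were picked after their values were seen.

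Among the 13 genes of hydroxylation and glycosylation, which stabilise the triple helix, 2 rose in the window and none fell. *P4ha3*, a catalytic subunit of prolyl 4-hydroxylase, rose by 3.33 ± 0.29 (adjusted p = 4.15e-07) and its relative *P4ha2* by 0.60, a call made in 3 of 16 fits that left out 1 library. Their shared subunit *P4hb* changed by 0.65 ± 0.20, just short of the threshold (adjusted p = 0.0500, and 0.00522 by DESeq2), and the prolyl isomerase *Ppib* by 0.37 ± 0.21. None of the 8 chaperone and export genes passed by edgeR, where 4 had an unadjusted p under 0.05 in the window and 1 at 6 against 1 dpi. DESeq2 called 1 in the window, *Fkbp10*, and 0 at 6 against 1 dpi. *Serpinh1*, the collagen chaperone HSP47, had 0.57 ± 0.24 (adjusted p = 0.163) and *Fkbp10* 0.55 ± 0.18 (adjusted p = 0.0778).

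Of the 7 tested genes that trim the propeptides, *Adamts2*, which removes the amino-terminal end, rose by 0.78 in the window, whereas the enhancers of the carboxyl-terminal protease, *Pcolce* (-0.03 ± 0.27) and *Pcolce2* (0.06 ± 0.19), did not pass. Among the 5 lysyl oxidases, which crosslink chains, *Loxl2* and *Loxl3* rose by 1.74 and 1.17. *Lox* had 0.76 ± 0.29 (adjusted p = 0.121) and *Loxl1* -0.07 ± 0.17, in the window. *Lox* is among the markers whose peak the study used to draw the window, so its test there is not independent of that choice. From 1 to 6 dpi *Loxl1* had 0.78 ± 0.24 (adjusted p = 0.0427), a call made in 5 of 16 fits that left out 1 library and lost with the GC correction (0.29, adjusted p = 0.463).

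The 10 fibril regulators moved most often, with 5 higher and 2 lower in the window. *Fn1*, the fibronectin on which collagen fibrils assemble, rose by 3.20 ± 0.26 (adjusted p = 2.36e-07) and the matricellular protein *Sparc* by 0.73 ± 0.21 (adjusted p = 0.0343), a call lost in 6 of 16 fits that left out 1 library. Like *Lox*, *Fn1* is among the markers whose peak the study used to draw the window, so its rise there is not independent of that choice. *Col12a1* and *Col14a1*, which coat fibrils, rose 2.83-fold and 3.29-fold, and the proteoglycan *Fmod* by 1.48. *Lum* and *Tnxb* fell (adjusted p = 0.0388 and 0.0180), *Lum* in 7 of 16 fits that left out 1 library, and *Dcn*, the most counted of the small proteoglycans, had -0.63 ± 0.25 (adjusted p = 0.136).

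Of the 7 receptor and uptake genes, the integrin chain *Itga1* rose by 0.70 (called in 11 of 16 fits that left out 1 library) and the collagen receptor *Ddr2* fell by 1.01 in the window, while *Itgb1* (0.45 ± 0.16) and *Mrc2* (0.40 ± 0.21) did not pass. *Mrc2*, an endocytic collagen receptor, rose by 1.53 ± 0.30 from 1 to 6 dpi (adjusted p = 0.00241), and by 0.95 without the 3 libraries in which GC-rich genes stood high (adjusted p = 0.111). Among 4 tested genes of collagen breakdown, *Mmp14* (0.67 ± 0.20, adjusted p = 0.0471) and *Ctsk* (1.05) rose in the window, and *Mmp2* (-0.32 ± 0.19) did not pass there and had 0.93 ± 0.27 from 1 to 6 dpi (adjusted p = 0.0304). The *Mmp14* call was made in 5 of 16 fits that left out 1 library, and that of *Mmp2* at 6 dpi in 12 of 16 and not with the GC correction (0.76, adjusted p = 0.0559). Among the 9 regulators, *Scx*, a tendon transcription factor, rose by 2.55 ± 0.34 and the growth factor *Tgfb3* by 1.26, *Smad3* fell by 0.85, and *Ccn2* (0.65 ± 0.29) and *Tgfbr2* (-0.46 ± 0.17) did not pass. *Scx* rose by 3.03 ± 0.44 from 3 to 4 dpi (adjusted p = 0.000888), the step at which *Col11a1* rose.

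**Figure D5:**
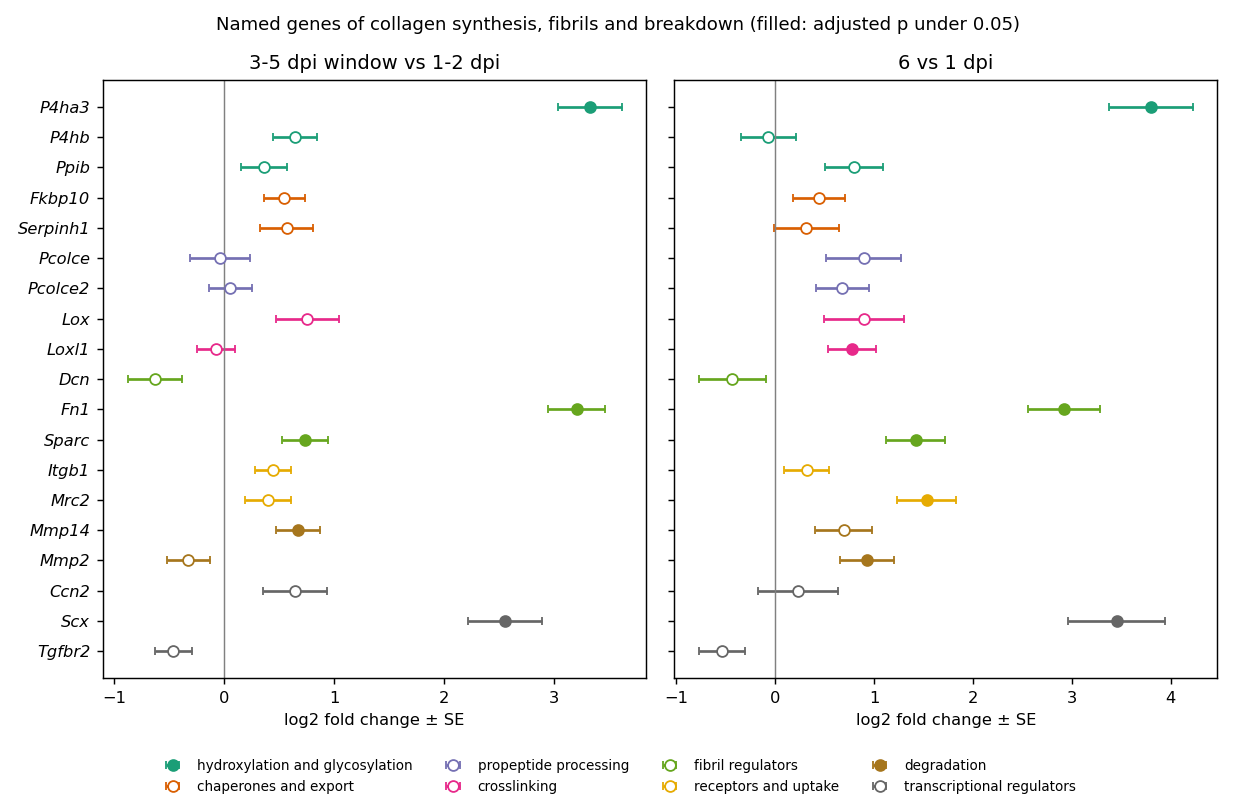
Log2 fold change with ± 1 SE (x axis) of the named genes of collagen synthesis, fibrils, uptake, breakdown and regulation (rows, coloured by list), in the window from 3 to 5 dpi against 1 and 2 dpi (left) and at 6 against 1 dpi (right). Filled points had an adjusted p under 0.05. *P4ha3*, *Fn1* and *Scx* lie above 2 in both panels, and *Serpinh1*, *Lox* and *Dcn* have open points in both.

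Of 8913 genes with a mean of at least 100 counts, those whose levels most resembled the mean of the standardized levels of the 7 members over the 17 libraries were *Psrc1* (Pearson's r = 0.958), *Palld* (0.955), *Cthrc1* (0.953), *Fn1* (0.942) and *P4ha3* (0.919). *Cthrc1* is the marker the study uses for reparative CFs, *Palld* encodes the actin-bundling protein palladin and *Psrc1* a microtubule protein of the spindle. By Spearman's correlation 2 of these 5 genes, *Psrc1* and *Palld*, were again among the first 5. For single members the nearest genes were *H19* for *Col1a1* (0.939), *Il2rg* for *Col1a2* (0.960), *Fn1* for *Col3a1* (0.944), *Palld* for *Col5a1* (0.946), *Cxcl12* for *Col5a2* (0.905), *Coro1b* for *Col5a3* (0.964) and *Ddah1* for *Col11a1* (0.895), and by Spearman's correlation only those of *Col5a1* and *Col5a3* were again the nearest. Of the genes named here, *Cthrc1*, *Fn1* and *Ddah1* are among the markers whose peak the study used to draw the window.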

How the data were processed

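Bulk MARS-seq counts of 17 libraries were analysed. Reads were demultiplexed by the authors (bcl2fastq 1.2.4), aligned to mm10 with STAR at default settings and counted per Ensembl gene with featureCounts, and the deposited values are raw counts without normalization. Neither a strand setting nor a collapsing of PCR copies is stated. The floors cover counting error only, whereas each SE also includes the spread between libraries. The 14030 genes that reached 10 counts in 3 or more libraries were tested in R (4.3.3) with edgeR (4.0.16, TMM, quasi-likelihood F-test), with day as a factor of 6 levels and Benjamini-Hochberg adjustment. In these tests the window was the mean of its day coefficients, so that the single 5 dpi library weighed as much as all those of 3 dpi or of 4 dpi. For the SE, the log2 fold change was divided by the root of its F statistic. Levels are given as log2 CPM of TMM-scaled library sizes (prior count 2). Ratios are log2 of counts plus 0.5, compared by two-sided exact permutation over libraries. For the GC correction, a smooth curve of each library's deviations on the GC content of the longest transcript was removed, which would also remove a change of expression that follows GC content. Gene positions are from GENCODE vM21 and promoter windows from RefSeq. The edgeR test was tested on simulated data. DESeq2 (1.42.0), other scalings, filters and windows, a replicate block and leaving out each library in turn, except that of 5 dpi, were alternatives. The GC correction, the fits without the 3 GC-rich libraries and those within the sex-linked pattern were added after seeing the data. The members, lists and tests were chosen with earlier results of these data known. Named were the 7 members, the 4 other fibrillar collagens, in each list the 2 genes of highest counts and any changed by at least 2 in the window, the 5 genes most alike and 1 for each member. The other called list genes named (*P4ha2*, *Adamts2*, *Loxl2*, *Loxl3*, *Col12a1*, *Col14a1*, *Fmod*, *Lum*, *Tnxb*, *Itga1*, *Ddr2*, *Ctsk*, *Tgfb3*, *Smad3*) were chosen after their values were seen. The 5 dpi library bears replicate number 3 in its title and 1 in its description. All 18 replicate pairs differed beyond counting noise. Where the labels name no separate animals, p-values measure the spread between these libraries.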

Additional observations from a re-analysis of the deposited data

Results flagged for a closer look

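Among 13 measures of the 4 libraries at 3 dpi, the only day with more than 3, 3 dpi replicate 2 lay far from the other 3 libraries for 3 fibrillar collagen genes. Chance flags about 1 in 20 such groups, or 0.65 of 13. Its level was 14.03 log2 CPM for *Col1a1* (others 12.23 to 12.53), 13.22 for *Col1a2* (others 12.26 to 12.39) and 9.70 for *Col5a1* (others 9.37 to 9.40). In the same library GC-rich genes stood 0.43 above GC-poor genes on the log2 scale, against -0.49 to -0.19 in the other 3. After the GC correction the SD of the 4 *Col1a1* levels was 0.60 in place of 0.82. The part of GC content in these levels was not tested.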

How the results depend on the processing

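From 2 to 3 dpi 0 fibrillar collagen genes were called by edgeR, and 2.94% of all genes. Brackets give the share called of the genes entered in the same fit. These were 20569 by DESeq2 and with every gene of at least 1 count. They were 10341 with at least 10 counts in every library. The count of fibrillar collagen genes was 1 with DESeq2 size factors (3.04%) and with every gene of at least 1 count (4.76%). It was also 1 with at least 10 counts in every library (3.83%), 2 with the GC correction (3.93%) and 3 by DESeq2 (5.11%). Without the 3 libraries in which GC-rich genes stood high it was 4 (8.07%). With each library but that of 5 dpi left out in turn, here and below, it ran from 0 to 2 (0.33% to 5.25%). From 3 to 4 dpi the count of 1 became 0 with at least 10 counts in every library, since *Col11a1* was then not tested. It ran from 0 to 1 at 6 against 4 dpi with each library left out (*Col5a2*, -1.50, without 6 dpi replicate 3), and from 0 to 2 for the window against 6 dpi, where it was 1 with every gene of at least 1 count. With the replicate number as a block, the *Col5a2* rise in the window was 0.79 (adjusted p = 0.0939 by edgeR) and was lost, and no other call of the 7 genes changed. The numbers did not pair the libraries, since the mean correlation of deviations was 0.003 over 30 pairs of the same number and -0.005 over 72 others. The *Col5a2* rise was also lost with the window at 4 and 5 dpi (1.05). With that window, *Col5a1* to *Col1a1* differed from 1 and 2 dpi by -0.68 and no longer passed, and *Col11a1* to *Col5a1* by 3.71 and passed, as it did without the 3 libraries (2.67). With each library left out, *Col5a1* to *Col1a1* ran from -0.88 to -0.62 and lost the call without 1 dpi replicates 1, 2 or 3 or 2 dpi replicate 1. *Col11a1* to *Col5a1* ran from 2.05 to 2.67, and, against 6 dpi, *Col1a1* to *Col1a2* ran from -0.79 to -0.64 and *Col3a1* to *Col1a1* from 0.56 to 1.13, both passing without 3 dpi replicate 2. The other fibrillar collagens called at 6 against 1 dpi fell from 4 to 1 with at least 10 counts in every library, and to 2 with only the days compared or without 1 dpi replicates 2 or 3. In the window 2 became 1 with that filter, the block, the libraries richer in Y-linked counts, or without 1 dpi replicate 1 or 2 dpi replicate 1. The 19 genes of collagen synthesis called in the window ran from 13 to 30 over the alternatives and from 14 to 27 with each library left out, and the 18 at 6 against 1 dpi from 16 to 22 and from 14 to 24. No called change reversed. Depth limited *Col11a1*, with at most 44 counts in any library up to 3 dpi.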
